A study of Mus musculus with 9 samples.

Results

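Sites of HOX13 binding whose centre fell inside the protein-coding part of an exon were examined in mouse distal forelimb cells. The peak intervals of 6 wild-type CUT&RUN lists were merged wherever they shared at least 1 bp, which gave 138427 merged sites, of which 47799 were called in at least 3 of the 6 lists. A site was kept when its midpoint lay in a CDS exon (the translated part of an exon) of a protein-coding gene in the GENCODE M21 basic annotation of mm10 and more than 2 kb from every annotated transcription start site. This left 231 coding exon sites in 227 host genes, or 0.656% of the 35233 sites beyond 2 kb from a start site. The remaining 35002 sites beyond 2 kb are called the other distal sites here.

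CUT&RUN maps a DNA-binding protein by letting an antibody bring a nuclease to it, so that only nearby DNA is cut out and sequenced. The series held 9 libraries from distal forelimbs (strain B6CBAF1): 3 wild-type HOXA13 and 3 wild-type HOXD13 libraries at E12.5, 2 HOXA13 libraries at E12.5 from the II1TDOM 542 line, and 1 HOXD13 library from that line labelled E11.5. The 542 embryos were homozygous for a copy of the limb enhancer II1 placed with an HBB promoter and a lacZ reporter into the T-DOM domain beside the HoxD cluster on chromosome 2, and their reads were mapped on the mutant genome. Each library came from pooled cells of several embryos, so the spread between libraries was that between pools, and the third wild-type HOXD13 library was described as a reanalysis of an earlier deposit. The lists held 23893 to 117657 intervals, and the depth recovered from them was 36.9 to 65.5 M read ends. Peak lists hold no expression values, so the tissue label was not checked against marker genes.

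HOXA13 and HOXD13 are homeodomain transcription factors that act together in the distal limb bud, where they are needed to form the digits and the wrist. Their preferred DNA is an AT-rich core with a TAAA step, and most of their known targets in the limb are enhancers and promoters outside the coding sequence. Coding exons are short stretches set between introns, and on average they hold more G and C than the sequence around them.

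The sequences around 6 summits are shown because they let the position of the motif be read against the exon. The main summit of a library is the highest point of its interval. The motif searched was 8 bases long (C, then C or T, any base, A or G, then TAAA), on both strands, within 25 bp of a main summit. The first 4 are the highest ranked sites called in all lists that hold the motif there, and Heatr5a and Lipm were added after their values were seen, because the motif lay inside their exon. Each is the mm10 plus strand from 50 bp before to 50 bp after a main summit, with the motif in capitals.
Ddx4, chr13:112621472-112621572: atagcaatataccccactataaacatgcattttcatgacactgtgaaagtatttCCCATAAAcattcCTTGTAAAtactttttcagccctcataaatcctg
Cdc40, chr10:40844898-40844998: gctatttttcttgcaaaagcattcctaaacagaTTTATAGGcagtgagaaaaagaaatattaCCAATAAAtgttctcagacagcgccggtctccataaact
Slc25a24, chr3:109156494-109156594: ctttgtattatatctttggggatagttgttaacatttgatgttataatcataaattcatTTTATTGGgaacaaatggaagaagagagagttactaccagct
Hacd2, chr16:35101852-35101952: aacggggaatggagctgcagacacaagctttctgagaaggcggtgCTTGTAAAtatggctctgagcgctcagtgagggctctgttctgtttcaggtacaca
Heatr5a, chr12:51930150-51930250: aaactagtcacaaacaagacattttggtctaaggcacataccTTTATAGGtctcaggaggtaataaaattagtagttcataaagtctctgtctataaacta
Lipm, chr19:34116114-34116214: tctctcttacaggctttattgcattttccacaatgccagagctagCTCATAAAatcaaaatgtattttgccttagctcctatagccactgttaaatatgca
In Ddx4, Slc25a24 and Hacd2 the motif lay wholly outside the coding exon, although the midpoint of the site was inside it. In Cdc40 there were 2 motifs, of which CCAATAAA lay partly in the exon and the other outside it. In Heatr5a and Lipm the 8 bases lay inside the exon, and 60 and 89 of the bases shown were coding.

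Among sites in at least 3 lists, coding exons held fewer per base than the rest of the sequence beyond 2 kb from start sites. They made up 1.09% of those bases (27.3 Mb) and held 0.656% of the sites, that is 8.47 sites per Mb of coding exon against 14.1 per Mb elsewhere. Of the 17886 protein-coding genes with coding sequence beyond 2 kb from a start site, 227 hosted a coding exon site (1.27%). In 223 host genes there was 1 site, and 4 host genes had 2, namely Cacna1a, Ddx4, Itga1 and Snx10. These densities were not tested, and they depend on the merging: within single lists, 1.45%, 1.76% and 2.92% of the intervals beyond 2 kb were coding in HOXA13 replicates 1 and 2 and HOXD13 replicate 2, above the share of bases, and 0.502% to 0.623% in HOXA13 replicate 3 and HOXD13 replicates 1 and 3, below it. At the edge of the rule, the nearest start site was 2039 bp away for the closest site kept and 1969 bp for the farthest site left out, 102 of the kept sites were in exactly 3 lists, and 297 sites that met the position rule were in exactly 2 lists.

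Most sites were wider than the exon at their centre. The median merged width was 807 bp (830 bp for the other distal sites) and the median host exon was 155 bp long, so that the median site had 21.4% of its length in CDS. Only 20 of the 231 sites lay wholly inside their exon, and 60 had at least 50% of their length in CDS. The highest ranked main summit fell in CDS in 102 sites (44.2%), in an untranslated part of an exon of the host gene in 13, and in an intron or outside the host gene in 116. Where it was outside the host exon (130 sites), it was a median of 80 bp away (quartiles 43.3 and 137 bp), before the exon in the sense of transcription in 66 sites and after it in 64. Over libraries, 357 of 960 main summits (37.2%) fell in the host exon. In 55 sites every main summit did, and in 86 sites none did.

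The last coding exon held 57 sites (24.7%) against 16.4% of the coding bases beyond 2 kb. Internal exons held 157 sites (68.0%) against 77.3% of those bases, first exons held 10 and single-exon genes 7. By exon length, 108 sites were in exons of up to 150 bp (46.8% against 38.4% of bases), 60 in exons of over 150 and up to 300 bp (26% against 32.4%), 39 in exons of over 300 and up to 1000 bp (16.9% against 14.6%) and 24 in longer exons (10.4% against 14.6%). With the coding sequence cut into 3 equal lengths, the last held 107 sites (46.3% against 37.2% of bases), the middle 68 and the first 56. For 214 sites the midpoint was coding in every transcript of the gene that spanned it. None of these shares was tested.

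The 10 highest sites called in all lists were ranked by the median over libraries of the percentile of −log10 p among the intervals of that library. Fold enrichment, the height of the pile of read ends at the summit over the local background, is given for them. First was the last exon of Nipbl (exon 46 of 46, 363 bp), which encodes the factor that loads cohesin onto chromatin, at chr15:8290878-8292172 with a median percentile of 98.8. Its fold enrichment was 15.6, 14.3 and 6.35 in HOXA13 replicates 1, 2 and 3, and 7.55, 11.8 and 4.28 in HOXD13 replicates 1, 2 and 3. The pile at its summit was 810 read ends in HOXA13 replicate 1 and 38 in HOXD13 replicate 3, so the libraries differed widely in how precisely they measured the same site. In 4 libraries its main summit lay in the exon.

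Ddx4 encodes a germ-cell RNA helicase and held 2 sites, both in all lists. In exon 13 of 21 (chr13:112620509-112622021, median percentile 98.4), fold enrichment was 16.5, 18.1 and 7.60 in the HOXA13 libraries and 4.67, 10.1 and 6.40 in the HOXD13 libraries. In exon 17 (chr13:112603858-112605398, median percentile 58.8) it was 3.58, 3.09 and 5.41 with HOXA13 and 4.15, 3.99 and 5.17 with HOXD13. The first site was highest in HOXA13 replicates 1 and 2, whereas the second was highest in both replicates 3. No main summit of the first site was in the exon, and the motif shown above lay at the main summit in 4 of its 6 libraries.

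The last exon of Grm4, a metabotropic glutamate receptor, followed (chr17:27422241-27423291, exon of 54 bp, median percentile 98.0). Its fold enrichment was 14.3, 11.8 and 9.15 with HOXA13 and 7.35, 8.04 and 6.70 with HOXD13. In exon 9 of 15 of Cdc40, a pre-mRNA splicing factor (chr10:40844252-40845684), the values were 13.9, 12.1 and 6.70 against 7.33, 9.15 and 6.94. Here HOXA13 replicate 3 was the lowest of the 6. No main summit of the Grm4 or Cdc40 site lay in the exon, and 5.14% and 3.21% of their lengths were in CDS.

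Exon 2 of 4 of Btd, which encodes the enzyme biotinidase (chr14:31661551-31662911), had similar values with both antibodies, at 7.82, 8.00 and 4.0 with HOXA13 and 7.67, 8.92 and 4.55 with HOXD13. The 4 libraries numbered 1 and 2 were high and both replicates 3 were low. Slc25a24, a mitochondrial carrier of ATP and phosphate (exon 5 of 10, chr3:109155962-109157856), had the narrowest range of the 10 sites, from 5.62 in HOXD13 replicate 3 to 9.53 in HOXA13 replicate 1. No main summit of the Btd or Slc25a24 site lay in the exon, and 18.8% and 8.39% of their lengths were in CDS. The remaining 4 sites were in Syne3, a linker protein of the nuclear envelope (exon 16 of 17, chr12:104939029-104940204), Hacd2, an enzyme of fatty acid elongation (exon 6 of 7, chr16:35101529-35102468), Robo3, a receptor of axon guidance (exon 17 of 28, chr9:37420615-37421522), and Unc13b, which primes synaptic vesicles (exon 22 of 41, chr4:43240399-43241717). Their median percentiles were 92.0 to 96.7, and in each of them HOXA13 replicate 1 was the highest library (11.9 to 14.7). The main summit was in the exon in 3 libraries for Robo3, in 1 for Hacd2 and in none for Syne3 and Unc13b. All 10 sites were also overlapped by an interval of every 542 list, as were 50 of the 52 coding exon sites in all wild-type lists outside chromosome 2 (96.2%). The share overlapped per 542 list was on average only 2.59 percentage points above that of the other distal sites in all wild-type lists.

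**Figure D1:**
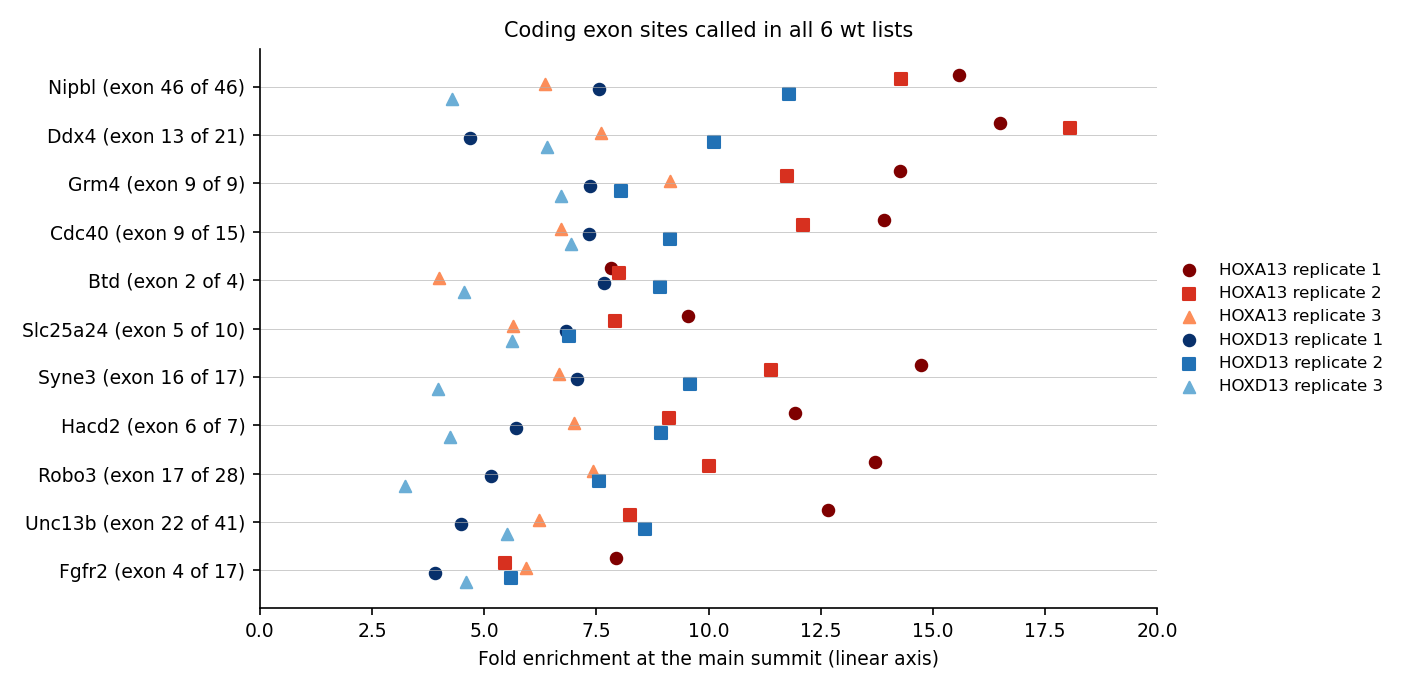
Fold enrichment (horizontal axis, no unit) at the main summit of the 10 highest ranked coding exon sites called in all 6 wild-type lists and of the site in Fgfr2, with 1 point per library, red shades for HOXA13 and blue shades for HOXD13. In Nipbl the points run from 4.28 to 15.6, and HOXA13 replicate 1 is the highest library in 9 of the 11 sites, the exceptions being Ddx4 and Btd.

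Of the genes known to act in limb patterning and growth, 110 had coding sequence beyond 2 kb from a start site and 1 hosted a site (0.909%, against 1.27% of all such genes). This was Fgfr2, a receptor of the FGF signals that drive limb outgrowth, in exon 4 of 17 (chr7:130227961-130229342, median percentile 90.0). Its fold enrichment was 7.94, 5.46 and 5.93 with HOXA13 and 3.90, 5.59 and 4.59 with HOXD13, with overlapping groups, and no main summit fell in the 170 bp exon. None of 102 homeobox genes and none of 238 olfactory and vomeronasal receptor genes hosted a site. Collagen genes hosted 2 of 45, Col19a1 and Col6a3, genes of chromatin regulators 2 of 76, Brd7 and Kmt2c, and protocadherin and Fat genes 1 of 77, Dchs2. Of the genes used as marks of other cell types in a limb bud, 2 of 7 muscle genes hosted a site, Met and the giant sarcomere gene Ttn, and none of the 9 epidermal, 7 endothelial, 6 blood and 5 nerve and crest genes did. The muscle genes held 0.113 Mb of such coding sequence, against 0.0119, 0.0206, 0.00872 and 0.00682 Mb in the other lists in that order. Their 2 sites had a median percentile of 32.0, and 0 were in all 6 lists.

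Genes with a zinc finger symbol (such as Zfp, Zbtb or Zkscan), many of which encode their array of fingers in 1 long last exon, hosted 11 sites in 474 genes (2.32%, against 1.27% of all genes). Zinc finger genes with other symbols, such as Bcl11b and Prdm13, were not in this list. Of the 11 sites 7 were in a last or single exon, where 24.7% and 3.03% of all coding exon sites lay. At least 50% of the length was in CDS in 8 of them (26.0% of all coding exon sites). Exactly 3 lists called 7 of them (44.2% of all), and all 6 lists called 2 (23.8% of all). In Zfp771 the site in the last exon was called in all lists (chr7:127253577-127254649), with fold enrichment of 7.91, 4.34 and 2.36 with HOXA13 and 4.49, 6.45 and 3.53 with HOXD13. In Zfp865 it lay wholly inside a single coding exon of 3174 bp (chr7:5031054-5031971) and was called in HOXA13 replicate 1 (3.38), HOXA13 replicate 2 (2.20) and HOXD13 replicate 2 (2.56) only. In the 542 lists 6 of the 11 were not called at all and 4 were called in all 3, against 15.6% and 56.9% of all coding exon sites outside chromosome 2.

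Host genes were longer than other genes, with a median length of 66.4 kb against 24.0 kb for all genes with coding sequence beyond 2 kb. In 55.9% of them another distal site lay in the gene body, against 28.2% of all such genes, and 60.8% had a site within 2 kb of one of their own start sites, against 53.0%. These shares were not adjusted for gene length. The nearest other site was a median of 14242 bp from a coding exon site and 11657 bp from the other distal sites.

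In all 6 lists there were 55 of the 231 coding exon sites (23.8%), near the 26.4% of the other distal sites, and against 29.1% of all sites in at least 3 lists, which include those near start sites. By antibody, 137 sites (59.3%) were in more HOXA13 than HOXD13 lists, close to the 55% of all sites, and 17 (7.36%) were in more HOXD13 than HOXA13 lists against 6.63%. In all 3 HOXA13 lists and no HOXD13 list there were 8 sites (3.46%, against 3.82%), and in all 3 HOXD13 lists and no HOXA13 list there were 0, against 0.0921% of all sites. None of these shares was tested, since the same calls selected the sites.

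The 5 highest of the 8 sites seen with HOXA13 alone were modest. In exon 8 of 25 of Rad50, a component of the complex that senses DNA breaks, the HOXA13 values were 4.92, 4.81 and 2.95, and in the last exon of Tex10 they were 5.11, 3.98 and 2.43. In the last exon of Arl6, a small GTPase of the cilium, they were 4.49, 3.98 and 2.87. Carmil1, a regulator of actin capping (exon 18 of 38, 12 bp long), gave 5.91, 3.04 and 2.09, and the last exon of Snx10, a sorting nexin, gave 2.34, 2.54 and 1.83. In each of the 5, HOXA13 replicate 3 was the lowest library. Being in no HOXD13 list means that no interval passed the authors' threshold there, not that the protein was absent.

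A second site in Snx10, in exon 4 of 6 (chr6:51579958-51580687), was called in 5 lists, at 4.98, 4.61 and 3.50 with HOXA13 and 4.77 and 3.20 in HOXD13 replicates 2 and 3. Cacna1a, the pore subunit of the P/Q-type calcium channel, had 1 site in its last exon in all lists (chr8:84639245-84640091, exon of 468 bp), with values of 6.84, 4.96 and 4.25 against 5.18, 5.06 and 4.36. There the motif lay at a main summit in 3 libraries and the main summit in the exon in 3. Its other site, in exon 37 of 47 (chr8:84614423-84615002), was called in HOXA13 replicates 1 and 3 and HOXD13 replicate 2, at 4.33, 2.60 and 3.97.

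Single libraries held very different shares of the coding exon sites. They were called in 97.4%, 85.3% and 59.7% of cases in HOXA13 replicates 1, 2 and 3, and in 36.8%, 93.9% and 42.4% in HOXD13 replicates 1, 2 and 3. The other distal sites were called in 97.4%, 84.6% and 77.2%, and in 40.7%, 85.9% and 56.5%. The coding exon sites were thus called less often in both replicates 3 and in HOXD13 replicate 1, and more often in HOXD13 replicate 2. The single most frequent pattern was a call in HOXA13 replicates 1 and 2 and HOXD13 replicate 2 and in no other list. It held 67 coding exon sites (29.0%) against 13.5% of the other distal sites.

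**Figure D2:**
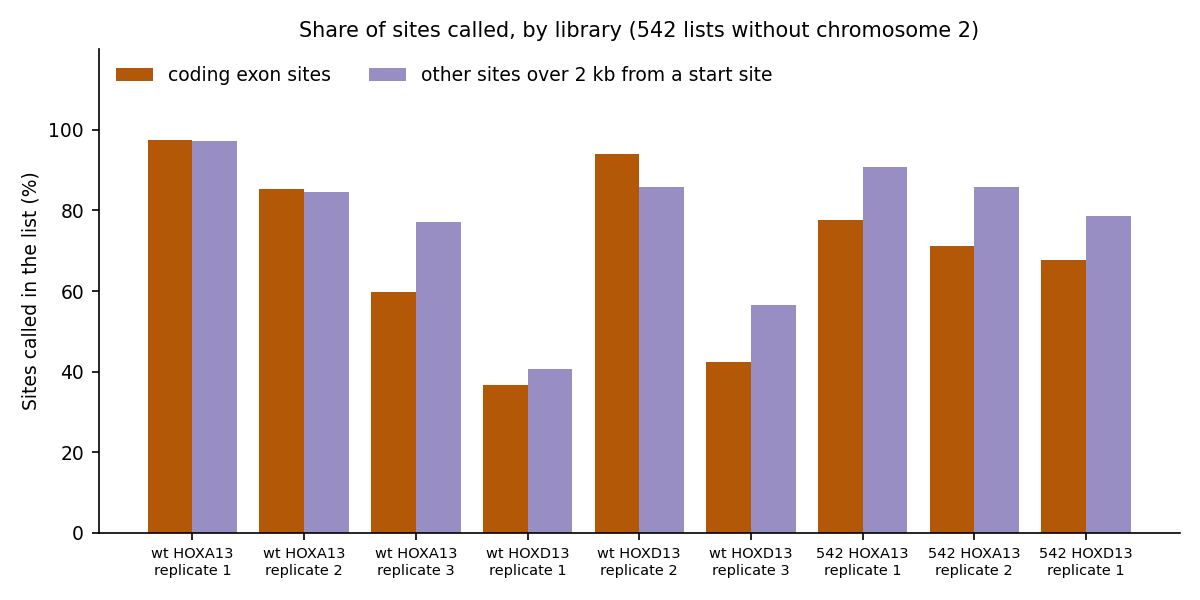
Share of sites called in each list (vertical axis, %), for the coding exon sites (orange) and the other distal sites (purple), with chromosome 2 left out for the 542 lists. The bars are level in HOXA13 replicate 1 (97.4% each), whereas the coding exon sites are lower in HOXA13 replicate 3 (59.7% against 77.2%), in HOXD13 replicate 3 (42.4% against 56.5%) and in all 3 lists of 542.

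The 67 sites of that pattern differed in several measures from the 55 sites in all lists. Their median exon was 281 bp long against 136 bp, 51.7% of the median site was in CDS against 12.3%, and the GC content of the 200 bp around the highest ranked main summit was 52.5% against 40%. The median fold enrichment was 3.15 against 5.53, and 14 of the 67 lay wholly inside their exon against 0 of 55. The median merged width was 688 bp against 1126 bp, and a site merged from more intervals tends to be wider. None of these measures was adjusted for width or for the number of lists. The motif was found at a main summit of at least 1 library in 11 of the 67 (16.4%) and in 19 of the 55 (34.5%). A site in all lists has more main summits to search than a site in 3 lists, so these shares are not on a like basis. Of the 67 sites 19 were in a last exon, and GC content around the summit ran from 37.5% to 84.0%. Examples from the GC-rich end, outside the rule for named sites, were the last exons of Bcl11b and Prdm13. Both encode zinc finger regulators of transcription. Bcl11b (exon of 2012 bp, GC 63.0% around the summit) had fold enrichment of 2.60, 2.85 and 2.59 in HOXA13 replicates 1 and 2 and HOXD13 replicate 2. Prdm13 (exon of 1721 bp, GC 74.5% around the summit) had 3.18, 3.15 and 2.30. The site in the last exon of Otud7a, a deubiquitinase, had the highest GC content around the summit of all members (84.0%), with 3.40, 2.99 and 2.58. These groups were formed by the calls after the values were seen, so the contrast is a description.

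Exon length followed the same division. Of the sites in exons of up to 150 bp 27.8% were in all 6 lists, and of those in exons of up to 300, up to 1000 and over 1000 bp, 28.3%, 17.9% and 4.17% were. The share called in HOXA13 replicates 1 and 2 and HOXD13 replicate 2 only was 19.4%, 21.7%, 46.2% and 62.5% in the same order. Median GC content around the summit was 42.0%, 46.8%, 64.0% and 67.8%. The 1 site in an exon over 1000 bp that was in all lists was in Ankrd24 (exon of 1377 bp, GC 72.5% around the summit). Its fold enrichment was 4.44, 2.91 and 3.47 with HOXA13 and 3.38, 3.98 and 2.83 with HOXD13. Exon length, GC content and library moved together here, and their separate parts were not tested.

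**Figure D3:**
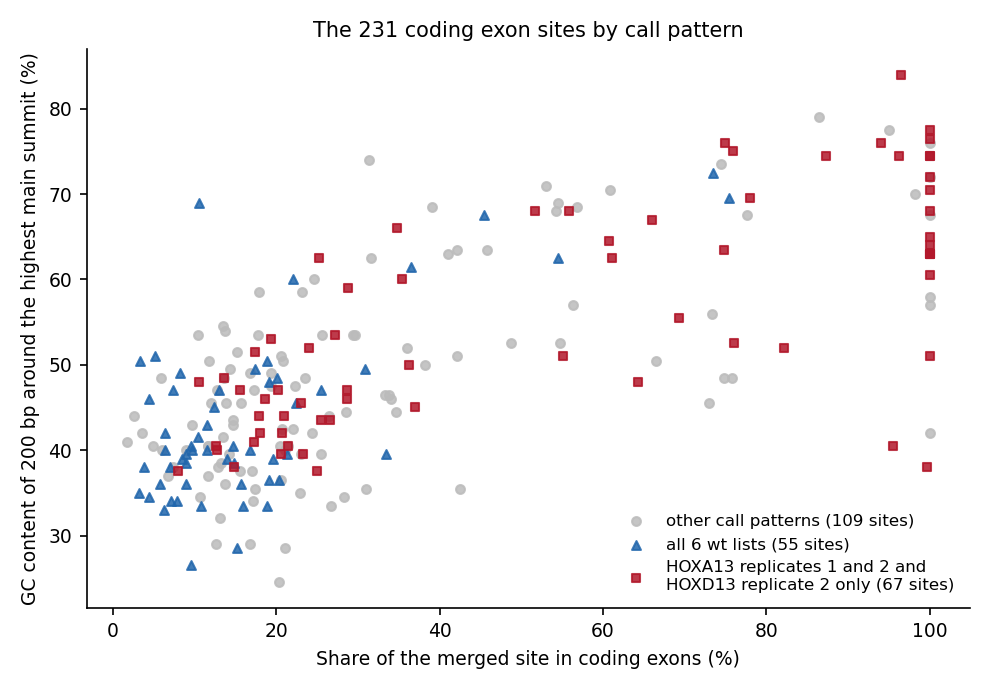
GC content of 200 bp around the highest ranked main summit (vertical axis, %) against the share of the merged site that is in coding exons (horizontal axis, %), with 1 point per site. The 55 sites called in all 6 lists (blue triangles) are mostly at the lower left (medians of 12.3% in CDS and 40% GC), and the 67 sites called only in HOXA13 replicates 1 and 2 and HOXD13 replicate 2 (red squares) spread to the upper right (51.7% and 52.5%). The shares in CDS are not adjusted for merged width, with medians of 1126 bp and 688 bp.

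The share of a library's own intervals with the midpoint in CDS, among those beyond 2 kb from a start site, was set between the antibodies. It was 1.45% (95% Wilson interval 1.36 to 1.54), 1.76% (1.64 to 1.89) and 0.510% (0.448 to 0.579) in HOXA13 replicates 1, 2 and 3, and 0.623% (0.513 to 0.756), 2.92% (2.78 to 3.06) and 0.502% (0.426 to 0.591) in HOXD13 replicates 1, 2 and 3. HOXA13 replicates 1 and 2 and HOXD13 replicate 2 were high and the other libraries low, so the groups overlapped fully. The mean was 1.24% ± 0.651 (SD, n = 3) with HOXA13 and 1.35% ± 1.36 (SD, n = 3) with HOXD13, a difference of -0.108 percentage points (exact permutation test, two-sided, p = 0.9, adjusted p = 0.938 over 6 tests, smallest possible p 0.1). Without HOXD13 replicate 2 the difference was 0.677 and without HOXA13 replicate 3 it was 0.257, so a single library set its direction.

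The excess of coding intervals in those 3 libraries lay among their weakly enriched intervals. With chromosome 2 left out, 3.06%, 3.90% and 4.91% of the intervals with a fold enrichment under 3 were coding in HOXA13 replicates 1 and 2 and HOXD13 replicate 2. In HOXA13 replicate 3 and HOXD13 replicates 1 and 3 the shares were 0.530%, 0.597% and 0.561%. At a fold enrichment of 5 and over, the same shares were 0.467%, 0.451% and 0.518%, and 0.457%, 0.423% and 0.215%. The median GC content at the main summit of all intervals beyond 2 kb was 43.5%, 43.5% and 46.5% in the 3 libraries with the excess and 39.5%, 41.0% and 40.5% in HOXA13 replicate 3 and HOXD13 replicates 1 and 3, and the part of GC content was not tested.

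**Figure D4:**
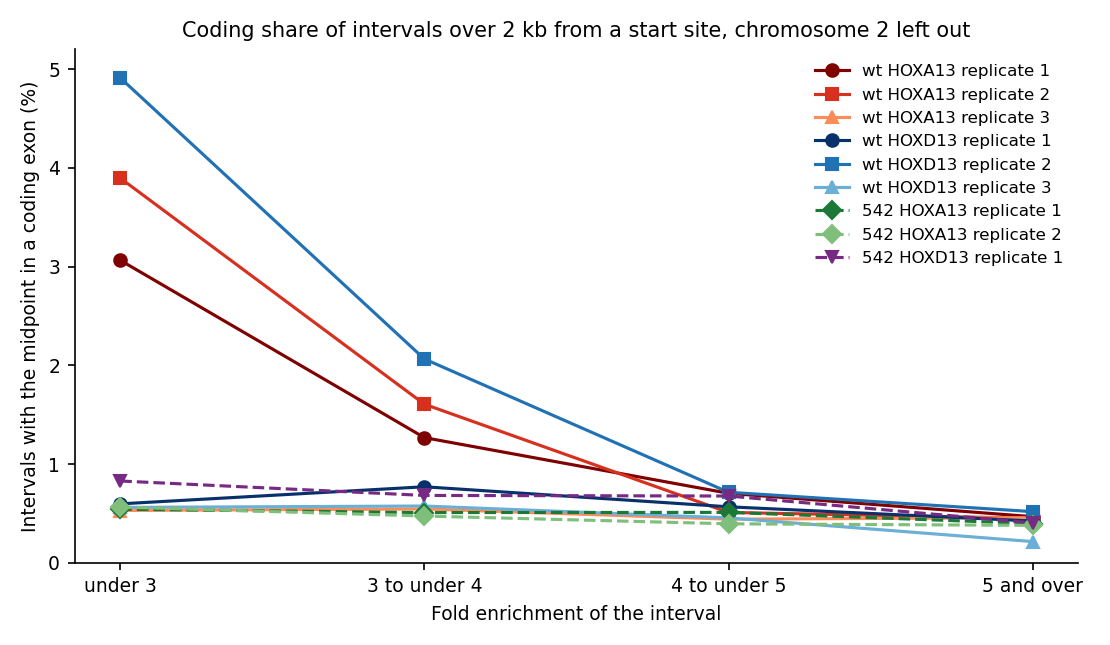
Share of intervals with the midpoint in a coding exon (vertical axis, %), among intervals beyond 2 kb from a start site and outside chromosome 2, by class of fold enrichment (horizontal axis), with 1 line per library and dashed lines for 542. Under a fold enrichment of 3 the wild-type HOXA13 replicates 1 and 2 and HOXD13 replicate 2 stand at 3.06%, 3.90% and 4.91%, and at 5 and over all 9 libraries lie between 0.215% and 0.518%.

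Outside chromosome 2, the coding share of the HOXA13 lists was 1.43%, 1.78% and 0.514% in wild type and 0.479% and 0.443% in 542. The mean was 1.24% ± 0.656 (SD, n = 3) against 0.461% ± 0.0257 (SD, n = 2), a difference of 0.782 percentage points (exact permutation test, two-sided, p = 0.2, adjusted p = 0.375, smallest possible p 0.1). All 3 wild-type lists were above both 542 lists, but HOXA13 replicate 3 was above them by little, and the difference was 0.0701 among intervals enriched 5 times or more. Genotype cannot be told apart from mapping genome here.

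A smaller share of the coding exon sites than of the other distal sites was overlapped by a 542 interval in each of the 3 lists, but not among the strongest sites. Outside chromosome 2, 164 of 211 sites (77.7%) were called in 542 HOXA13 replicate 1, 150 (71.1%) in replicate 2 and 143 (67.8%) in 542 HOXD13, against 90.8%, 85.9% and 78.6% of the other distal sites. The mean difference was -12.9 percentage points ± 1.99 (SD, n = 3; exact sign-flip permutation test over the 3 lists, two-sided, p = 0.25, which is the smallest possible, adjusted p = 0.375). The 3 lists scored the same sites, so this test measures only agreement between lists. In all 3 lists of 542 there were 120 coding exon sites (56.9%), against 72.3% of the other distal sites and 74% of all sites. When sites were selected without wild-type HOXA13 replicate 1, HOXA13 replicate 2 or HOXD13 replicate 2 the difference was -3.24, -4.42 and -1.93, with 128, 153 and 140 coding exon sites left. The direction turned for sites in all 6 wild-type lists (2.59) and for intervals enriched 5 times or more (3.09).

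The 33 coding exon sites in no 542 list (15.6%, against 5.36% of the other distal sites) were weak and GC-rich. Their median percentile was 31.1, their median exon 675 bp and their median GC content 63.0%. Of the 33, 29 had been called in exactly 3 wild-type lists, against 90 of all 211 coding exon sites outside chromosome 2. Sites in exons of up to 150 bp were in no 542 list in 7% of cases, and those in exons over 1000 bp in 56.5%. Among the 33 were the exons of Zfp865, Bcl11b, Prdm13 and Otud7a described above, and exon 11 of 20 of Met, the receptor of hepatocyte growth factor, with fold enrichment of 3.47 and 4.14 in HOXA13 replicates 1 and 2 and 2.84 in HOXD13 replicate 2. The 55 sites in all wild-type lists included 52 outside chromosome 2, of which 50 (96.2%) were in all 3 lists of 542 and 0 in none. Their share called per 542 list was on average 2.59 percentage points above that of the other distal sites in all wild-type lists.

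The HOX13 motif was found at coding exon sites in every library, mostly at a lower rate than at the other distal sites. In HOXA13 replicates 1, 2 and 3, 9.78% (95% Wilson interval 6.55 to 14.4), 14.2% (10.0 to 19.8) and 13.8% (8.99 to 20.5) of the main summits had it within 25 bp, against 17.5%, 16.9% and 12.6%. In HOXD13 replicates 1, 2 and 3 it was 9.41% (4.85 to 17.5), 7.83% (4.95 to 12.2) and 6.12% (2.84 to 12.7), against 15.2%, 14.4% and 9.95%. The coding exon sites were lower in 5 of the 6 libraries, with HOXA13 replicate 3 as the exception. The libraries scored overlapping parts of the same set of sites, so the test below measures agreement between libraries on these sites only. The mean difference was -4.23 percentage points ± 3.21 (SD, n = 6; exact sign-flip permutation test, two-sided, p = 0.0625, adjusted p = 0.375). With the other distal sites weighted to the GC content of the coding exon sites, an alternative chosen after seeing the data, it was -2.18. It was 0.371 among intervals enriched 5 times or more, and -6.81 and -8.96 with windows of 100 and 200 bp.

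In windows of the same size 1 kb from the summit the motif was found in 0.510% to 2.54% of the coding exon sites and in 2.23% to 2.48% of the other distal sites. The share at the summit was above the share 1 kb away in all 6 libraries for both kinds of site. The log2 ratio of summit to flank, with 0.5 percentage points added to each, differed between them by -0.20 on average (exact sign-flip permutation test, n = 6, p = 0.438).

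**Figure D5:**
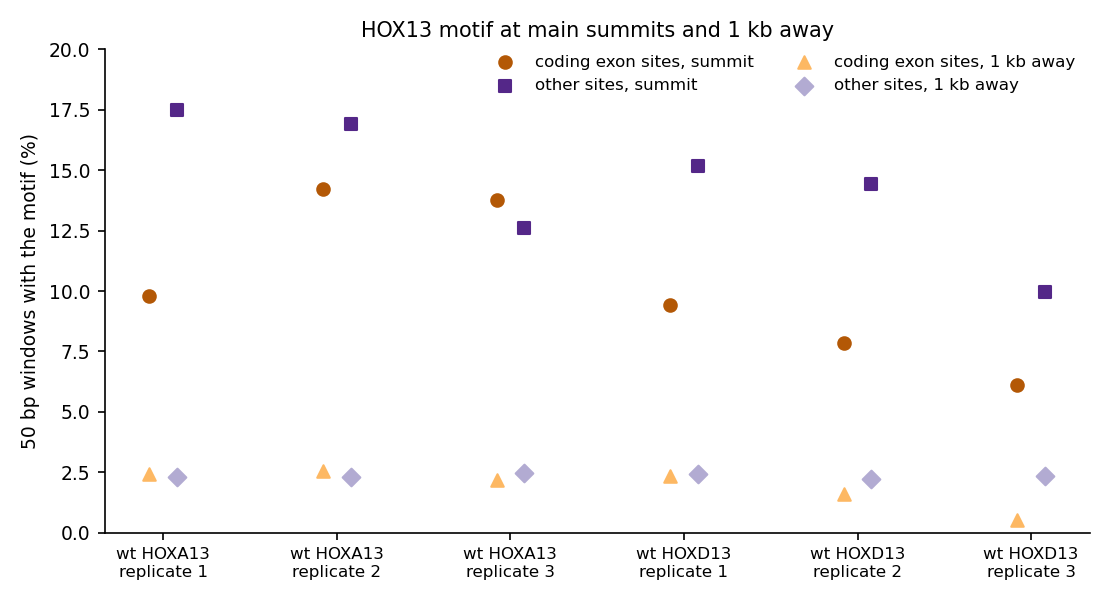
Share of 50 bp windows holding the HOX13 motif (vertical axis, %) in the 6 wild-type libraries, at the main summit and 1 kb away, for the coding exon sites and the other distal sites. At the summit the coding exon sites lie between 6.12% and 14.2%, below the other distal sites in 5 libraries, and all flank values are at 2.54% or less.

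Over libraries, 51 coding exon sites (22.1%) had the motif at a main summit at least once, 25 of them in 1 library only. It was there in 5 libraries for Lipm, a lipase of the epidermis (exon 5 of 9, chr19:34115459-34116840), and for Heatr5a (exon 13 of 35, chr12:51929782-51930802). Lipm was called in 5 lists, at 7.01, 4.94 and 3.97 with HOXA13 and at 4.6 and 4.52 in HOXD13 replicates 2 and 3, and its main summit was in the exon every time. Heatr5a was called in all lists, at 6.14, 9.57 and 5.91 with HOXA13 and 3.96, 5.14 and 4.04 with HOXD13. The main summit of Heatr5a was in the exon in 4 libraries.

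Wholly inside a coding exon, 18 matches of the motif lay within 25 bp of a main summit, in 18 sites. In 5 of them the motif ran in the sense of the gene and in 13 against it. Among 8111 matches in all coding bases beyond 2 kb, 45.2% ran in the sense of the gene and 54.8% against it. In the sense direction no match, of either set, began at the last base of a codon, where its TAA would have been a stop codon in frame. The difference in direction was not tested.

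In height and width the mean difference between coding exon sites and the other distal sites was smaller than its SD between libraries. The median percentile of −log10 p was 62.4, 53.6 and 66.1 in HOXA13 replicates 1, 2 and 3 against 72.8, 64.9 and 65.6, and 54.5, 61.9 and 60.2 in HOXD13 replicates 1, 2 and 3 against 51.3, 67.5 and 58.6. Coding exon sites were lower in HOXA13 replicates 1 and 2 and HOXD13 replicate 2 and higher in HOXA13 replicate 3 and HOXD13 replicates 1 and 3. The mean difference was -3.65 percentile points ± 6.30 (SD, n = 6; exact sign-flip permutation test, two-sided, p = 0.25, adjusted p = 0.375). The heights came from the same lists whose calls selected the sites, so this test cannot separate height from call pattern. Among sites in all 6 lists the mean difference was 1.25. When sites were selected without HOXA13 replicate 1, HOXA13 replicate 2 or HOXD13 replicate 2 it was 1.57, 0.0649 and 1.27. The median interval width of a library ran from 406 to 625 bp over the 6 libraries, against 420 to 664 bp for the other distal sites. The mean difference was -0.01 on the log2 scale ± 0.11 (SD, n = 6; exact sign-flip permutation test, p = 0.938, adjusted p = 0.938).

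The 102 sites whose highest ranked main summit was in CDS ranked lower than the 129 where it was not, with median percentiles of 44.8 and 60.7. Of the first, 14.7% were in all 6 lists, and of the second, 31.0%. Median GC content was 53.3% and 43.0%, and outside chromosome 2 25.8% and 7.63% were in no 542 list. The motif was found at a main summit of at least 1 library in 20.6% and 23.3%. Sites in more lists had more main summits to search, so these shares are not on a like basis. The division uses the same summits as the calls, so it was not tested.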

How the data were processed

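HOXA13 and HOXD13 CUT&RUN peak lists from 9 libraries were used. Per the study's methods, the authors trimmed reads with cutadapt, mapped them with bowtie2 on mm10 or, for 542, on the mutant genome, kept pairs with a mapping quality of at least 30 (SAMtools; Picard marked duplicates) and called peaks in each library separately with MACS2 without a control, at q of at most 0.05, with read ends extended to 200 bp and duplicates kept. The deposited lists give for each summit a fold enrichment (a ratio over local background), −log10 p and −log10 q, and a display score, which was not used. Values were not normalised further between libraries.

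Summits of 1 interval were reduced to that of highest −log10 p (its main summit). Pileups were recovered as the whole number that best fitted fold enrichment and −log10 p, and depth from the lowest background with the default MACS2 mouse genome size. Among called coding exon sites they ranged from 12 to 810 read ends. Confidence intervals cover counting error only. Sites were merged, annotated and scanned in Python 3.11.15 with pysam 0.24.0, numpy 2.4.6 and scipy 1.17.1 on GRCm38 (mm10). Steps were tested on simulated data. Comparisons were made over libraries by exact permutation or sign-flip tests, with Benjamini-Hochberg adjustment over 6 tests. The sign-flip tests drew on the same set of sites in each library, so they measure agreement between libraries on these sites only. Chromosome 2 was left out of 542 comparisons.

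The members, gene lists and tests were chosen with earlier results of these data known. Named sites were the 10 highest in all lists, the 5 highest in HOXA13 lists alone (none in HOXD13 lists alone), those in limb genes, and the 3 genes with most sites (ties by chromosome and start). Zinc finger, collagen and similar lists were made from gene symbols. Same-numbered wild-type HOXA13 and HOXD13 libraries deviated together (correlations of deviations 0.11, 0.143 and 0.348 over 20307 merged strong intervals), so their numbers were taken as paired, although HOXA13 replicate 1 correlated more with HOXD13 replicate 2 (0.22), and HOXA13 replicate 2 slightly more with HOXD13 replicate 1 (0.146). Alternatives were the summit in place of the midpoint, other distances, thresholds, annotations and motifs, and leaving out each library.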

Additional observations from a re-analysis of the deposited data

Results flagged for a closer look

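Outside chromosome 2, 16 coding exon sites beyond 2 kb from a start site were called in all 3 lists of 542 and in no wild-type list. They drew attention because these lists were not used to choose the 231 sites. They were 16 of 164 such coding sites of 542 (9.76%), and 10.9% of the other distal sites in all 3 lists of 542 were likewise in no wild-type list. Fold enrichment in them ran from 2.5 to 8.21. The lowest of the 3 values was highest in Prkaa2, a catalytic subunit of AMP-activated kinase, at 4.38, with 5.04 and 5.51 in the other lists. The difference between genotypes at these sites was not tested.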

How the results depend on the processing

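The coding share by antibody (-0.108 percentage points) changed sign at a fold enrichment of at least 5 (0.0417) and over the top 10000 intervals (0.000688), and ranged from -0.530 to 0.677 when single libraries were left out. The coding share by genotype stayed positive in all 14 alternatives. The motif difference (-4.23) was 0.371 at a fold enrichment of at least 5. With sites in at least 4 lists (-4.27) and with the 5-base core (-8.50) its exact p reached 0.0313, before adjustment. The height difference (-3.65) was 0.625 at −log10 q of at least 5, 0.805 with at least 4 lists and 1.25 with all 6. It was -18.2 over the 102 sites with midpoint and highest summit in CDS, an alternative chosen after seeing the data. Only the coding exon sites were picked by their summit there, so no test result is given for it. Without single libraries the height difference ran from -6.38 to 1.57. The width difference (log2) was 0.0226 beyond 5 kb, 0.0416 at −log10 q of at least 5, 0.0258 with at least 4 lists and 0.0397 with all 6, and -0.0743 to 0.0578 without single libraries. The difference in 542 calls (-12.9) was 3.09 at a fold enrichment of at least 5 and 2.59 with all 6 lists, and without single libraries it ran from -14.8 to -1.93. The number of coding exon sites (231) was 129 in at least 4 lists, 55 in all 6, 102 with the summit also in CDS, 184 under the comprehensive annotation (chosen after seeing the data), and 128 to 225 without single libraries. With a replicate block, the paired differences were -0.108 (antibody), -4.23 (motif), -3.65 (height) and -0.0056 (width). For genotype, where the numbers are not known to pair, the block gave 1.15, the same value as leaving out wild-type HOXA13 replicate 3. With 3 or 2 pairs the smallest possible exact p is 0.25 or 0.5, so the blocked fits could make no call. Fewer sites remain under the stricter limits, and beyond that the cause of these changes was not tested. Of the 20 named sites, 20 kept their number of lists within 1.5 times at −log10 q of at least 5 and 11 at a fold enrichment of at least 5, where 5 were in no list.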

Other observations

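Itga1, the α1 subunit of a collagen-binding integrin, was the remaining gene with 2 coding exon sites. The site at chr13:114966177-114966893 was called in all lists, with fold enrichment of 6.69, 5.34 and 3.57 with HOXA13 and 3.32, 4.46 and 3.32 with HOXD13. The site at chr13:114992093-114992857 was called in 4 lists, at 6.84, 3.84 and 3.95 with HOXA13 and 4.79 in HOXD13 replicate 2. Both were named after their values were seen.

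Of the collagen genes, Col19a1 was called in all lists, at 7.35, 6.19 and 4.74 with HOXA13 and 3.32, 3.51 and 3.64 with HOXD13. Col6a3, which encodes a chain of collagen VI, was called in 4 lists at 2.46 to 3.30. Of the chromatin regulators, Brd7, a bromodomain subunit of a SWI/SNF complex, was called in all lists at 2.82 to 7.25, and Kmt2c, a histone H3 lysine 4 methyltransferase, in 4 lists at 2.97 to 8.83.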
